A study of Mus musculus with 40 samples.

Results

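The transcripts of 9 genes of regulatory T-cells and of the receptors that tune T-cell activation were followed in primary tumors of a pair of orthotopic mouse models of triple-negative breast cancer (TNBC). The genes were Foxp3, Il2ra, Ctla4, Icos, Ikzf2, Tnfrsf4, Tnfrsf9, Tnfrsf18 and Cd28. They were selected by symbol, and all 9 were present among the 14318 genes measured by bulk RNA-sequencing in 39 tumors.

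All tumors grew in the mammary ducts of wild-type female BALB/c mice that were lactating when luciferase-expressing cells were inoculated, and all were taken at 5 w p.i. The age of the mice at sampling is not in the labels. The 4T1-based model gave 4 untreated tumors with values, 5 anti-PD-1-treated tumors, 5 chitin-treated tumors and 5 tumors treated with chitin + anti-PD-1. The 66cl4-based model gave 5 tumors in each of the same 4 groups. Anti-PD-1 was a checkpoint-blocking antibody of clone RMP1-14 at 200 µg per mouse, chitin was a particle suspension at 1 mg per mouse, and both were injected i.p. The combination group received both agents, and the labels name no isotype or vehicle injection for the untreated mice. Each model rests on 1 cell line, and the labels do not say whether tumors of a group came from separate mice. The cells were inoculated in the third mammary gland pair, so that tumors of a group could share a mouse. The p-values therefore describe the spread between these tumors.

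Regulatory T-cells are CD4+ T-cells that restrain other immune cells. Foxp3 is their lineage-defining transcription factor, Ikzf2 (Helios) is a partner factor found in many of them, and Il2ra (CD25) completes the high-affinity receptor for interleukin-2, on which they depend. Cd28, Ctla4 and Icos form one family of immunoglobulin-type receptors: CD28 and ICOS costimulate T-cells, whereas CTLA-4 competes with CD28 for the ligands CD80 and CD86. Tnfrsf4 (OX40), Tnfrsf9 (4-1BB) and Tnfrsf18 (GITR) belong to the tumor necrosis factor receptor superfamily, signal through TRAF adaptors, and are induced on activated T-cells and carried at high levels by regulatory T-cells. None of these genes is exclusive to regulatory T-cells, and in bulk tumor RNA fewer cells of a type and less RNA per cell cannot be told apart.

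The genes lie in a few clusters of the mouse genome (GRCm38, that is mm10). Cd28 (chr1:60746388-60773359), Ctla4 (chr1:60909025-60915832) and Icos (chr1:60960773-61000322) follow each other on the plus strand with no protein-coding gene between them, at gaps of 135.7 and 44.9 kb. Ikzf2 (chr1:69531207-69687351, minus strand) lies farther along the same chromosome. Tnfrsf4 (chr4:156013595-156016613) and Tnfrsf18 (chr4:156026322-156028894) are direct neighbours with a gap of 9.7 kb, and Tnfrsf9 (chr4:150920155-150946104) lies elsewhere on that chromosome. Il2ra is at chr2:11642792-11693194 and Foxp3 at chrX:7579676-7595243, all of these on the plus strand. The exons of Foxp3 share 853 bases with the noncoding gene Flicr on the same strand. Reads from those bases could therefore not be assigned with certainty. On the opposite strand, the exons of Foxp3 also overlap those of the protein-coding genes Ccdc22 and Ppp1r3f and of the noncoding gene Gm36995. The exons of Tnfrsf18 and Ikzf2 overlap the antisense genes Gm16008 and Gm29114, respectively, each on the opposite strand.

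Reads on the 14318 genes ranged from 5105898 to 14800352 per tumor with a median of 6590274, and chitin-treated 66cl4 tumors had the highest group median. Depth sets how firmly each gene can be read. Tnfrsf9 was counted with 114 to 637 reads per tumor, Foxp3 with 48 to 274 and Ikzf2 with 37 to 220. The other 6 genes had few reads: the lowest tumor held 8 for Il2ra, 6 for Tnfrsf18, 5 for Icos, 3 for Tnfrsf4, 2 for Cd28 and 1 for Ctla4. Epithelial tumor-cell markers were present in every tumor, with summed normalized counts of 12790 to 44290 in 4T1 and 3341 to 5974 in 66cl4. A normalized count here is a read count divided by the size factor of its tumor.

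Per kb of exon, Tnfrsf9 was the most abundant of the 9, with a mean of 89.1 ± 34.2 normalized counts per kb (SD, n = 39). Foxp3 followed with 23.8 ± 6.15, then Tnfrsf18 with 17.9 ± 13.7 and Tnfrsf4 with 14.1 ± 11.96. Ikzf2 stood at 9.77 ± 2.26, and Icos, Ctla4, Il2ra and Cd28 stood at 6.74 ± 5.25, 5.33 ± 3.97, 5.07 ± 3.24 and 3.19 ± 2.12. After Tnfrsf9, the SDs of genes next to each other in this order overlapped over the 39 tumors, which pool both models and all treatments. In 66cl4 tumors alone Foxp3 stood at 26.25 ± 3.29 and Tnfrsf18 at 13.25 ± 3.57 (SD, n = 20). In 4T1 tumors alone they stood at 21.26 ± 7.41 and 22.75 ± 18.27 (SD, n = 19). In 8 of the 9 genes the 8 groups were also ordered alike at the top, with anti-PD-1-treated 4T1 tumors highest, whereas Tnfrsf9 was highest in untreated 66cl4 tumors. For each gene, all 7 pairs of groups next to each other in the order had overlapping ranges.

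**Figure D1:**
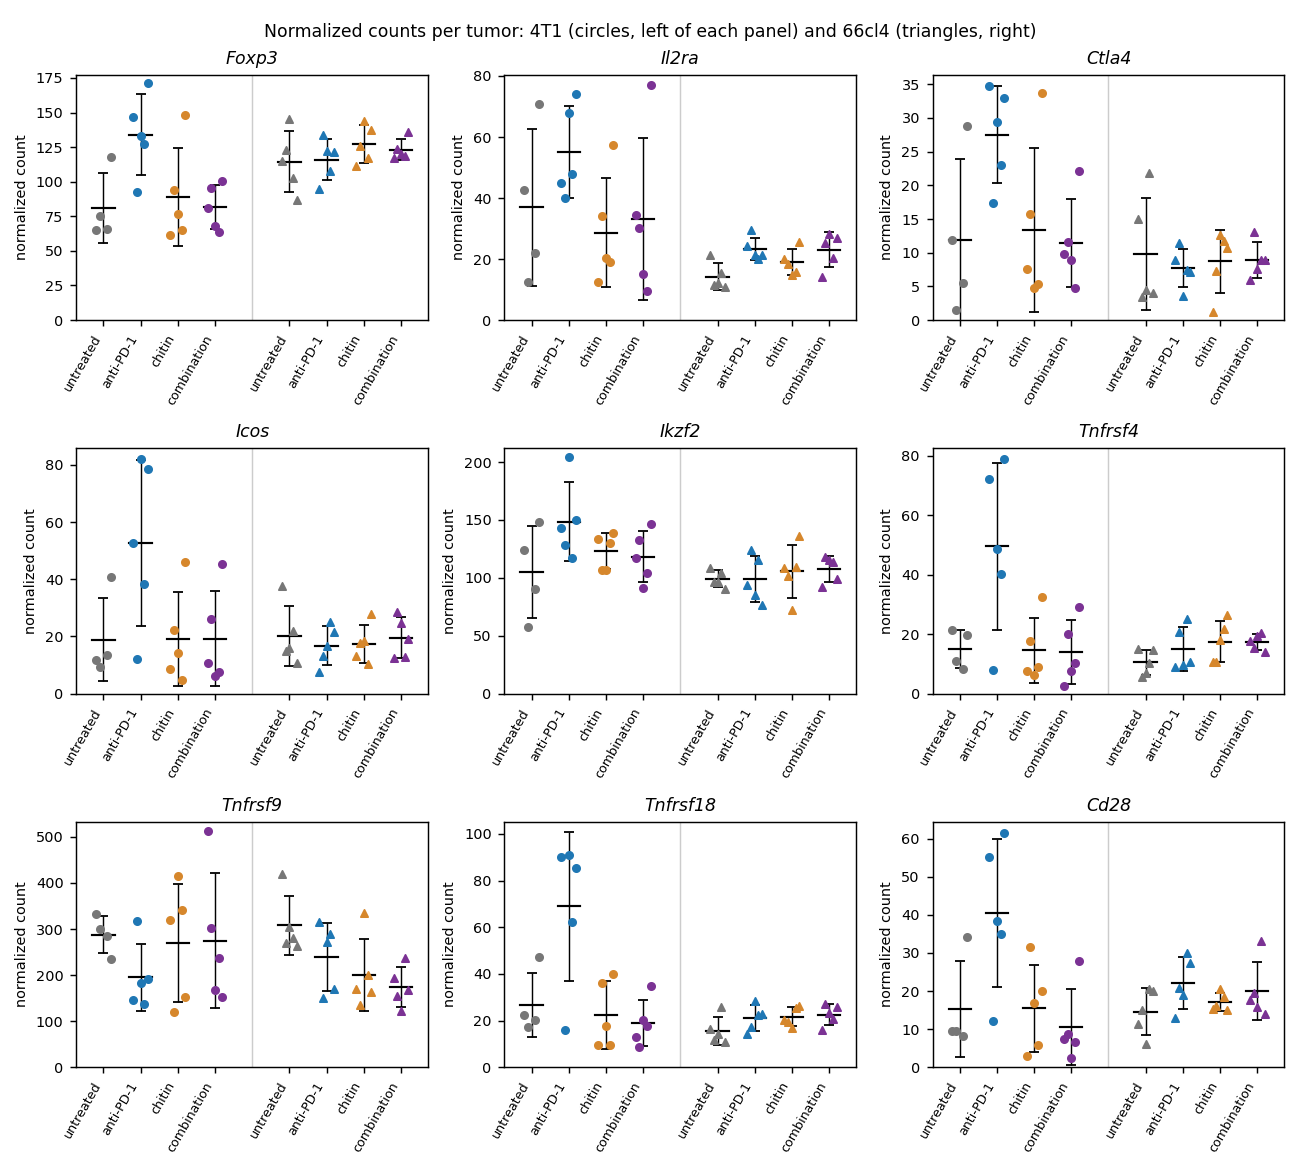
Normalized count (y axis, linear from 0) of each of the 9 genes in each tumor, by group. Circles are 4T1 and triangles 66cl4 tumors, the horizontal bar is the group mean and the error bar the SD, cut at 0. The highest group mean is that of anti-PD-1-treated 4T1 tumors in every panel but Tnfrsf9.

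The comparison of untreated tumors asked how the models differ before treatment. Foxp3 was lower and Il2ra was higher in 4T1 than in 66cl4 tumors, and the other 7 genes did not pass the test (limma, Benjamini-Hochberg adjustment over all 14318 genes, threshold 0.05). The 2 of 9 genes called compare with 55.8% of all genes in that comparison, and with 60.2% of all genes at an unadjusted p under 0.05, where the same 2 of 9 were found. Limma-voom on the reads placed 1 of 9 at either level. The median difference of the 9 genes was 0.02 against 0.02 for all genes, in the log2-like units of the variance-stabilized values.

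Foxp3 was at 65.0, 75.1, 65.6 and 118 normalized counts in untreated 4T1 tumors 1, 2, 4 and 5, and at 115, 123, 145, 103 and 86.8 in untreated 66cl4 tumors 1 to 5. Of the 4T1 tumors, 3 of 4 lay under every 66cl4 tumor, and tumor 5 lay within the 66cl4 range. The difference was -0.27 ± 0.11 (SE), with an adjusted p of 0.034 in limma. Il2ra was at 42.6, 12.5, 21.9 and 70.8 in the same 4T1 tumors and at 10.7 to 21.3 in the 5 untreated 66cl4 tumors. Its difference was 0.34 ± 0.14 (SE) with an adjusted p of 0.037 in limma, and 3 of 4 4T1 tumors lay above all 66cl4 tumors. Both calls depended on single tumors: neither gene passed without untreated 4T1 tumor 1, 66cl4 tumor 2 or 66cl4 tumor 3. Without 4T1 tumor 5 or 66cl4 tumor 5 Foxp3 passed and Il2ra did not, without 4T1 tumor 2, 4T1 tumor 4 or 66cl4 tumor 1 Il2ra passed and Foxp3 did not, and without 66cl4 tumor 4 both passed. The gene called by limma-voom was Foxp3.

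The CD3 genes encode the invariant chains of the T-cell receptor. Cd3e ranged from 42.2 to 126 normalized counts over the 4 untreated 4T1 tumors and from 5.28 to 22.7 over the 5 untreated 66cl4 tumors, and its difference of 0.75 ± 0.18 (SE) had an adjusted p of 7.4e-04 in limma. Cd8a, the marker of cytotoxic T-cells, had means of 215 ± 128 (SD, n = 4) and 16.2 ± 8.95 (SD, n = 5). Of the 14 T-cell markers listed, 9 were higher in 4T1 past the adjusted threshold and 0 were lower, that is 9 of 14 against 55.8% of all genes in either direction, and Cd4 was not among them, with 38.9 ± 24.1 in 4T1 and 22.6 ± 11.9 in 66cl4 tumors.

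The proportion of Foxp3 to the CD3 genes was also compared. The ratio of Foxp3 to Cd3e in normalized counts had a median of 1.11 over the 19 4T1 tumors. Over the 20 66cl4 tumors its median was 4.53 and its range 2.46 to 27.5. The 66cl4 ratios rest on few reads, as Cd3e had 6 to 63 per 66cl4 tumor against 14 to 294 per 4T1 tumor. In untreated 66cl4 tumors Cd3e had 6 to 17 reads and Cd3d 5 to 14, so that comparisons of Foxp3 with them are imprecise there. Per kb of exon, Foxp3 exceeded Cd3e in 20 of 20 66cl4 tumors and in 9 of 19 4T1 tumors. On the variance-stabilized scale, Foxp3 minus the mean of Cd3d, Cd3e and Cd3g was 0.16 ± 0.26 (SD, n = 4) in untreated 4T1 and 1.10 ± 0.30 (SD, n = 5) in untreated 66cl4 tumors. The groups did not overlap, and the two-sided exact permutation test gave p = 0.0079, the smallest p these 4 and 5 tumors allow, or 0.056 after adjustment over 7 comparisons. Within models, the same measure differed between treated and untreated tumors by -0.32 to 0.23, with adjusted p from 0.22 to 0.78 in the exact permutation test. The largest of these was a lower Foxp3 relative to CD3 in anti-PD-1-treated than in untreated 4T1 tumors, at -0.16 ± 0.19 (SD, n = 5) against 0.16 ± 0.26 (SD, n = 4), with p = 0.063 before adjustment in the exact permutation test.

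**Figure D2:**
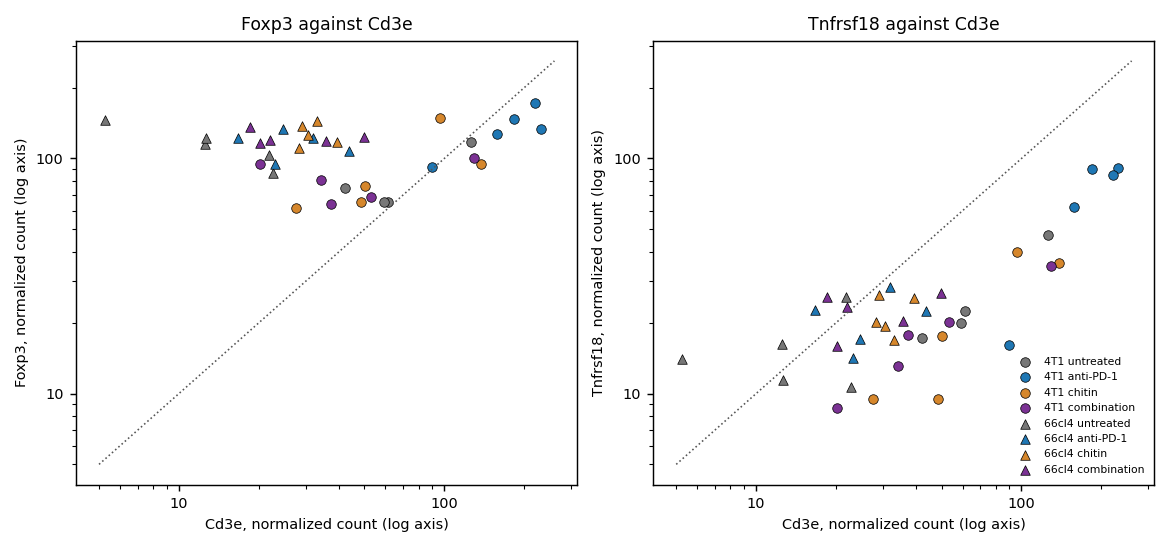
Foxp3 (left) and Tnfrsf18 (right) against Cd3e in each of 39 tumors, in normalized counts on log axes; circles are 4T1 and triangles 66cl4 tumors, colors are treatments and the dotted line marks equal counts. All 20 66cl4 tumors lie above the line for Foxp3, with ratios of 2.46 to 27.5, whereas 12 of 19 4T1 tumors do.

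Anti-PD-1 alone was compared with no treatment in each model. In 4T1 tumors, 7 of the 9 genes (Foxp3, Ikzf2, Ctla4, Icos, Cd28, Tnfrsf4 and Tnfrsf18) were higher at an unadjusted p under 0.05, at 1.41 to 3.29 times the mean normalized count of untreated tumors, against 8.89% of all genes at that level in either direction. None of the 9 passed the adjusted threshold in limma or in limma-voom, nor did any of the 14318 genes (0.00%), and limma-voom placed 7 of the 9 at an unadjusted p under 0.05. The adjusted p of the 7 genes ran from 0.52 to 0.53. The median difference was 0.39 for the 9 genes and -0.00053 for all genes.

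Foxp3 and Ikzf2, the transcription factors, had the lowest ratios of the 7 genes, at 1.66 and 1.41. Foxp3 was at 146.5, 92.3, 133, 127 and 172 normalized counts in anti-PD-1-treated 4T1 tumors 1 to 5, and 4 of these 5 lay above the highest untreated tumor. The difference was 0.39 ± 0.13 (SE, unadjusted p = 0.0090 in limma). Ikzf2 was at 143, 128, 205, 117 and 150, compared to 124, 57.9, 90.2 and 148 in the untreated tumors, with 2 of 5 above all of them and a difference of 0.30 ± 0.13 (SE, unadjusted p = 0.030 in limma). Il2ra, at 40.1 to 74.2 against 12.5 to 70.8, differed by 0.26 ± 0.19 (SE) and did not reach an unadjusted p of 0.05.

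Among the CD28 family, Cd28 was at 55.3, 12.04, 38.4, 35.0 and 61.5 normalized counts in anti-PD-1-treated 4T1 tumors 1 to 5, and at 9.46, 9.38, 8.20 and 34.1 in untreated tumors 1, 2, 4 and 5. Every treated tumor but tumor 2 exceeded all untreated tumors, and untreated tumor 5 was several times the other untreated tumors. The difference was 0.42 ± 0.17 (SE, unadjusted p = 0.022 in limma). Ctla4 had 34.7, 17.4, 29.4, 23.0 and 33.0 in treated compared to 11.8, 1.56, 5.46 and 28.8 in untreated tumors, a difference of 0.36 ± 0.14 (SE, unadjusted p = 0.018 in limma). Icos had 52.7, 12.04, 81.9, 38.4 and 78.7 compared to 11.8, 9.38, 13.7 and 40.6, a difference of 0.47 ± 0.20 (SE, unadjusted p = 0.030 in limma). For both genes 3 of 5 treated tumors lay above all untreated tumors.

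The neighbouring genes Tnfrsf4 and Tnfrsf18 had the highest differences. Tnfrsf4 was at 72.0, 8.03, 48.6, 40.1 and 78.7 normalized counts in anti-PD-1-treated 4T1 tumors 1 to 5 and at 21.3, 10.9, 8.20 and 19.7 in untreated tumors 1, 2, 4 and 5. Tnfrsf18 was at 89.9, 16.1, 90.9, 62.3 and 85.4 in the treated and at 22.5, 17.2, 20.04 and 47.2 in the untreated tumors. In both genes 4 of 5 treated tumors lay above every untreated tumor, whereas tumor 2 lay below all of them. The differences were 0.48 ± 0.18 (SE, unadjusted p = 0.014 in limma) for Tnfrsf4 and 0.48 ± 0.17 (SE, unadjusted p = 0.013 in limma) for Tnfrsf18. Tnfrsf9 was lower, at 146.5, 317, 183, 136.5 and 192 compared to 332, 300.2, 285 and 235, a difference of -0.41 ± 0.26 (SE, unadjusted p = 0.13 in limma).

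Anti-PD-1-treated 4T1 tumor 2 decided part of this result. Without it, Tnfrsf18 passed the adjusted threshold at 0.65 with an adjusted p of 0.048 in limma. Leaving out 1 tumor at a time gave 0 to 80 genes past that threshold among all 14318. With tumor weights estimated from the spread of each tumor, 6 of the 9 genes passed, namely Foxp3, Ctla4, Icos, Tnfrsf4, Tnfrsf18 and Cd28, at 0.44 to 0.71, against 6.70% of all genes.

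Markers of several immune cell types were higher beside these genes. In the same comparison 13 of 14 T-cell markers were higher at an unadjusted p under 0.05, against 8.89% of all genes in either direction. The 14 markers had a median difference of 0.62. Their summed level was 1247 to 3115 normalized counts in anti-PD-1-treated and 563 to 1851 in untreated 4T1 tumors. All 3 measured B-cell markers (Ms4a1, Cd79a and Cd79b) were higher at that level, with a summed level of 488, 5.35, 183, 292 and 508 in anti-PD-1-treated tumors 1 to 5 and of 7.09 to 59.0 in untreated tumors. Dendritic-cell markers were higher in 6 of 6, 4 of them at that level, with a median of 0.65, and macrophage markers in 6 of 6, 0 of them at that level, with a median of 0.41. Cxcl13, the only measured gene of 5 listed for lymph node, had 756, 83.0, 1086, 485 and 856 compared to 1.56 to 421, and the measured milk-protein genes Csn2 and Csn3 had a summed level of 1873, 4.01, 379, 1023 and 1245 compared to 4.73 to 132. Tumor 2 was lowest in its group for Foxp3, Il2ra, Ctla4, Icos, Tnfrsf4, Tnfrsf18 and Cd28, highest for Tnfrsf9, and lowest for the T-cell, B-cell, Cxcl13 and milk-protein levels. The part of these cell types in the result was not tested.

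In 66cl4 tumors Il2ra alone was higher at an unadjusted p under 0.05, against 5.36% of all genes. None of the 9 passed the adjusted threshold in limma or limma-voom (0.00% of all genes), and limma-voom placed 2 of 9 at the unadjusted level. Il2ra had variance-stabilized values of 6.91, 6.99, 6.86, 6.83 and 6.86 in anti-PD-1-treated compared to 6.86, 6.65, 6.67, 6.74 and 6.63 in untreated 66cl4 tumors 1 to 5. Its difference was 0.18 ± 0.06 (SE, unadjusted p = 0.0060, adjusted p = 0.90 in limma), with 4 of 5 treated tumors above all untreated ones. The other 8 genes differed by -0.28 to 0.15, and the median of the 9 was 0.01.

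The test of whether the response to anti-PD-1 differed between the models gave 0 of 9 genes past the adjusted threshold (0.00% of all genes; 0 of 9 by limma-voom). At an unadjusted p under 0.05, 4 of 9 responded more in 4T1, namely Foxp3, Ctla4, Icos and Ikzf2, against 7.27% of all genes, and limma-voom placed 2 of 9 there. The differences between the models were 0.38 ± 0.15, 0.39 ± 0.17, 0.53 ± 0.22 and 0.31 ± 0.15 (SE), with adjusted p from 0.65 to 0.67 in limma.

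Chitin alone was compared with no treatment. In 4T1 tumors no gene of the 9 reached an unadjusted p of 0.05 in limma or limma-voom, against 2.77% of all genes, and 0 passed the adjusted threshold (0.00% of all genes). Their differences ran from -0.14 to 0.15, with standard errors of 0.13 to 0.26. Within the group the tumors spread widely: Tnfrsf18 was at 9.48, 36.1, 17.6, 9.46 and 39.9 normalized counts in chitin-treated tumors 1 to 5, and tumors 2 and 5 were also the highest for Ctla4, Icos and Tnfrsf4. Their summed T-cell markers, at 1657 and 1298, exceeded the 444 to 726 of the other 3 tumors.

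In 66cl4 tumors 1 of 9 genes, Tnfrsf9, was lower in chitin-treated than in untreated tumors at an unadjusted p under 0.05, a share no higher than the 11.4% of all genes at that level. Tnfrsf9 was at 169, 135, 335, 200 and 162 normalized counts in chitin-treated tumors 1 to 5 and at 420.5, 269, 305, 281 and 263 in untreated tumors 1 to 5. Every chitin-treated tumor but tumor 3 lay under all untreated tumors, and the difference was -0.45 ± 0.16 (SE, unadjusted p = 0.010, adjusted p = 0.28 in limma). None passed the adjusted threshold in limma or limma-voom (0.00% of all genes), and limma-voom placed 2 of 9 at the unadjusted level. The other 8 genes differed by -0.04 to 0.16.

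The combination was compared with no treatment. In 4T1 tumors 0 of 9 genes reached an unadjusted p of 0.05 in limma or limma-voom, against 2.56% of all genes, and 0 passed the adjusted threshold (0.00%). The differences ran from -0.14 to 0.11, and Foxp3 was at 81.0, 95.1, 68.3, 63.7 and 100.3 normalized counts in combination-treated tumors, within the range of 65.0 to 118 of the untreated tumors for 4 of 5.

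In 66cl4 tumors the combination was accompanied by the lowest Tnfrsf9 of the 8 groups, at 193, 155, 121, 238 and 167 normalized counts. All 5 tumors lay under all 5 untreated tumors, a separation seen for 1 of the 9 genes and for 2.12% of all genes. The difference was -0.56 ± 0.16 (SE, unadjusted p = 0.0023, adjusted p = 0.30 in limma), which corresponds to 0.568 of the untreated mean. Tnfrsf9 kept its lower side without each tumor in turn, at -0.64 to -0.47. In contrast, 3 of 9 genes were higher at the unadjusted level: Il2ra by 0.18 ± 0.06, Tnfrsf4 by 0.17 ± 0.08 and Tnfrsf18 by 0.14 ± 0.06 (SE, adjusted p from 0.33 to 0.47 in limma). With Tnfrsf9, 4 of 9 were at that level in limma and in limma-voom, against 10.6% of all genes, and 0 passed the adjusted threshold (0.00%). In the same comparison T-cell markers were higher in 14 of 14, 4 of them at the unadjusted level, with a median of 0.11. At that level macrophage markers were higher in 4 of 6 and dendritic-cell markers in 3 of 6, and NK-cell markers were lower in 2 of 6. Their part in the result was not tested.

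The combination was also set against each agent alone. Compared to anti-PD-1-treated 4T1 tumors, 6 of the 9 genes were lower in combination-treated tumors at an unadjusted p under 0.05, against 9.13% of all genes in either direction, and limma-voom placed 7 of 9 there. None passed the adjusted threshold in limma or limma-voom (0.00% of all genes). Tnfrsf18 was at 13.1, 8.65, 20.2, 17.8 and 35.0 normalized counts in combination-treated tumors, a difference of -0.62 ± 0.16 (SE, unadjusted p = 0.0013, adjusted p = 0.26 in limma). Tnfrsf4 was at 2.45, 20.2, 7.58, 10.3 and 29.1 and differed by -0.54 ± 0.17 (SE, unadjusted p = 0.0047). The means of Tnfrsf18 and Tnfrsf4 were 0.275 and 0.282 of those of anti-PD-1-treated tumors, and anti-PD-1-treated tumor 2 lay among the combination-treated tumors.

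Among the CD28 family, 3 of 3 genes were lower at that level. Cd28 was at 7.36, 8.65, 2.53, 6.56 and 27.99 normalized counts in combination-treated 4T1 tumors, a difference of -0.53 ± 0.16 (SE, unadjusted p = 0.0030 in limma), and 4 of 5 lay under every anti-PD-1-treated tumor. Icos differed by -0.48 ± 0.19 and Ctla4 by -0.33 ± 0.13 (SE, unadjusted p = 0.019 and 0.021 in limma). Foxp3 differed by -0.38 ± 0.13 (SE, unadjusted p = 0.0078 in limma), whereas Il2ra, Ikzf2 and Tnfrsf9 did not reach that level. These are the same anti-PD-1-treated tumors as in the comparison with untreated tumors, so the opposite signs of these comparisons are not separate evidence.

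The calls of this comparison depended on the fit and on 1 tumor. With both models in 1 fit, 4 of 9 genes passed the adjusted threshold (Foxp3, Tnfrsf4, Tnfrsf18 and Cd28), against 2.05% of all genes, and with tumor weights 7 of 9 did, against 14.9% of all genes. Without anti-PD-1-treated tumor 2 Tnfrsf4, Tnfrsf18 and Cd28 passed at -0.70, -0.79 and -0.65 with adjusted p of 0.024, 0.012 and 0.040 in limma, and leaving out 1 tumor at a time gave 0 to 202 genes among all 14318. The T-cell markers moved with the genes: 14 of 14 were lower at an unadjusted p under 0.05, against 9.13% of all genes. Their median difference was -0.87, and their summed level was 416 to 1571 in combination-treated tumors. The B-cell sum was 14.4 to 38.5 and Cxcl13 was 12.6 to 143 in those tumors. Dendritic-cell markers were lower in 5 of 6 and macrophage markers in 4 of 6 at that level, and neutrophil markers were higher in 3 of 5. Their part in the result was not tested.

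**Figure D3:**
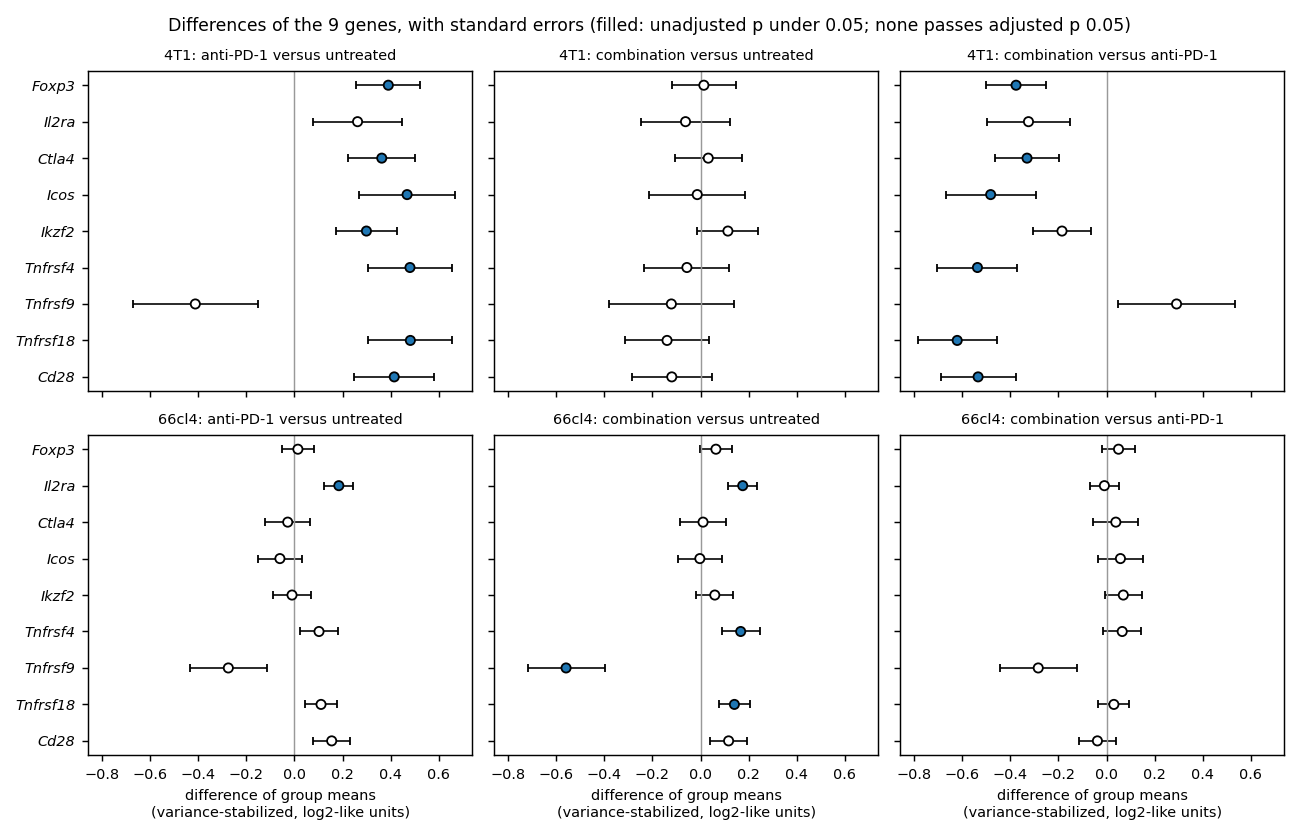
Difference of group means (x axis, variance-stabilized log2-like units) of each of the 9 genes with its standard error, for 3 comparisons in 4T1 (top) and 66cl4 tumors (bottom); filled points have an unadjusted p under 0.05. In 4T1 tumors 7 filled points lie right of 0 for anti-PD-1 against no treatment and 6 filled points left of 0 for the combination against anti-PD-1, with Tnfrsf9 on the opposite side in both. In 66cl4 tumors Tnfrsf9 lies farthest from 0.

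Compared to chitin alone, the combination gave 0 of 9 genes at an unadjusted p of 0.05 in either model, in limma or limma-voom, against 3.11% of all genes in 4T1 and 3.07% in 66cl4 tumors, with differences of -0.11 to 0.04 and of -0.11 to 0.07. In 66cl4 tumors the combination against anti-PD-1 also gave 0 of 9 by both, against 8.30% of all genes. The term for the interaction of chitin and anti-PD-1 placed 3 of 9 genes under an unadjusted p of 0.05 in 4T1 (Foxp3 by -0.43 ± 0.18, Tnfrsf18 by -0.53 ± 0.24 and Cd28 by -0.53 ± 0.23, SE), against 4.53% of all genes and 1 of 9 by limma-voom. In 66cl4 tumors it placed 0 of 9 there by both, against 4.99%. None of the 9 genes nor any other gene passed the adjusted threshold in these 5 tests (0.00%) in limma, and none of the 9 did in limma-voom.

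With the chitin-containing groups of a model pooled against its other groups, 3 of 9 genes were lower in 4T1 at the unadjusted level (Tnfrsf18 by -0.36 ± 0.12, Tnfrsf4 by -0.29 ± 0.12 and Cd28 by -0.27 ± 0.11, SE, adjusted p from 0.58 to 0.66 in limma), against 7.28% of all genes, and limma-voom also placed 3 there. The other groups include the anti-PD-1-treated tumors, which had the highest means of these 3 genes, and chitin against no treatment alone gave 0 of 9. At the same level 12 of 14 T-cell, 5 of 6 dendritic-cell, 4 of 6 macrophage and 3 of 3 B-cell markers were lower, and their part in the result was not tested. In 66cl4 tumors Tnfrsf9 was lower by -0.37 ± 0.11 (SE, adjusted p = 0.15 in limma), as 1 of 9 against 15.6% of all genes, and limma-voom placed 2 there. The adjusted threshold was passed by 0 of 9 and by 0.00% of all genes in both.

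Tnfrsf9 was also compared with all genes in how it varied between tumors. After the group means were removed, the genes most like Tnfrsf9 over the 39 tumors, among 12808 genes with a mean of at least 20 normalized counts, were Bnip3 (Pearson r = 0.84), Car9 (0.83) and Gapdh (0.83). BNIP3 is a mitochondrial mitophagy protein and carbonic anhydrase IX an acid-base enzyme, both textbook targets of hypoxia signalling, and GAPDH is an enzyme of glycolysis. Over the 19 4T1 tumors alone Bnip3 (0.88), Acvr1 (0.86) and Rnf11 (0.86) ranked highest. Over the 20 66cl4 tumors alone 2410006H16Rik (0.87), Tnfaip2 (0.87) and Lgals3 (0.85) did, and Bnip3, Car9 and Gapdh had r of 0.75, 0.79 and 0.81. In the 66cl4 combination against untreated tumors Bnip3, Car9 and Gapdh differed by -0.75 ± 0.25, -0.49 ± 0.31 and -0.23 ± 0.12 (SE), with adjusted p from 0.33 to 0.60 in limma.

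The genes most like the other 8 genes over the 39 tumors differed from these. For Tnfrsf18 they were Ptprcap (0.89), Ltb (0.88) and AB124611 (0.87), for Tnfrsf4 they were Cd79b (0.84), Ltb (0.81) and P2ry10 (0.80), and for Icos they were Fcho1 (0.84), Cd2 (0.80) and Il27ra (0.80). Cd28 was most like Lck (0.86), the kinase beside the T-cell receptor, and the lectin genes Clec4a1 (0.84) and Clec4a3 (0.83). Ctla4 was most like Il2ra (0.75), Bcl11b (0.74) and Oxct1 (0.71), Il2ra was most like 2310001H17Rik (0.79), Itgb7 (0.78) and Samhd1 (0.78), and Foxp3 was most like Icos (0.77), Atp2a3 (0.74) and Ptprcap (0.74). Ikzf2 was most like Zfp729a (0.74), Agtpbp1 (0.73) and Mybl1 (0.72). These values share the libraries of the tumors and carry no test. Within 66cl4 tumors alone (n = 20) other genes ranked highest, among them Inip (0.75), Nprl3 (0.73) and Mtmr2 (0.73) for Tnfrsf18, Itgb1 (0.78), Arrdc3 (0.76) and Itpr2 (0.75) for Tnfrsf4, and Utp14b (0.80), Zfp933 (0.76) and Zfp868 (0.72) for Icos.

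Sequence before annotated starts is shown for Tnfrsf9, because it varied unlike the rest, and for Tnfrsf4 and Tnfrsf18, because they are neighbours. Their r over the 39 tumors was 0.70, and each had a higher r with Icos on another chromosome, at 0.73 for Tnfrsf4 and 0.78 for Tnfrsf18. RefSeq promoters (GRCm38.p6) were at hand for 6 of the 9 genes, and the 250 bases before each start are given 5′ to 3′ on the plus strand. Capitals mark matches on either strand to the core of the hypoxia response element (ACGTG or GCGTG), to the NF-kB consensus or to AP-1 (TGANTCA). Such matches occur in 38.6%, 4.65% and 6.75% of 32851 promoter windows of this length.
Tnfrsf9, first start, chr4:150919905-150920154: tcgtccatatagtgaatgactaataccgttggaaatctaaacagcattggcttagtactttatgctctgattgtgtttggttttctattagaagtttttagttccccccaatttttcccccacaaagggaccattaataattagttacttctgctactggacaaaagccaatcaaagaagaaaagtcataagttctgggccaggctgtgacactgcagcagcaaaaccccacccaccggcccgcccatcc
Tnfrsf9, second start, chr4:150927749-150927998: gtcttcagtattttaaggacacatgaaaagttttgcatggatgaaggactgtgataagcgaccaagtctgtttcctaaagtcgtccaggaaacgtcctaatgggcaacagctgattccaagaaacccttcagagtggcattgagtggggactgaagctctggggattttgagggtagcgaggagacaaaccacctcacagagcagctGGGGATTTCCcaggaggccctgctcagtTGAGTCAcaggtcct
Tnfrsf4, chr4:156013445-156013694: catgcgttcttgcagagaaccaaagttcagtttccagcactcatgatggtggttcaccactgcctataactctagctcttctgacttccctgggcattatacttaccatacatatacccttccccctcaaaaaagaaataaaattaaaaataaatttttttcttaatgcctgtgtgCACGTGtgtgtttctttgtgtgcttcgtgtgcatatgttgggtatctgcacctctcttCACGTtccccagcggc
Tnfrsf18, chr4:156026072-156026321: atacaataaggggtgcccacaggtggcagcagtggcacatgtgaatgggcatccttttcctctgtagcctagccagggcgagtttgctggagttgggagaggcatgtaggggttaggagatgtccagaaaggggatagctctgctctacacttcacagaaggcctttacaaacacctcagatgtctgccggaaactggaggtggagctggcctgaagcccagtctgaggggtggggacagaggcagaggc
Neither Tnfrsf9 window holds the hypoxia core. The second, inside the gene, holds an NF-kB match that begins 43 bases before the start and an AP-1 match that begins 15 bases before it. The Tnfrsf4 window holds the hypoxia core 3 times, of which a pair overlap in 1 palindromic run. This window ends inside the gene as placed above (chr4:156013595-156016613), and all 3 matches lie in the part inside it. The Tnfrsf18 window holds none of the 3 motifs. A match is a string of letters and not a shown binding site.

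The relation of each gene to T-cell content was examined tumor by tumor, as deviations from the group means against the mean of Cd3d, Cd3e and Cd3g, with permutation of tumors within groups and adjustment over 18 relations. This family was chosen after the values had been seen. In 4T1 tumors (n = 19), 7 genes followed the CD3 genes past the adjusted threshold: Tnfrsf18 most closely (Pearson r = 0.87, Spearman rho = 0.94, both permutation p = 1e-05, the smallest that the permutations can give, and adjusted permutation p = 0.00018), then Ctla4 (0.81 and 0.82), Cd28 (0.80 and 0.76), Il2ra (0.79 and 0.77), Icos (0.77 and 0.71), Foxp3 (0.67 and 0.67) and Tnfrsf4 (0.65 and 0.67). The adjusted permutation p of the last 6 genes was 0.0024 to 0.011 for r and 0.0039 to 0.012 for rho. Among all 14311 genes that varied in these tumors, 4.49% had an r at least as high as that of Tnfrsf4, the lowest of the 7, and 0.447% one at least as high as that of Tnfrsf18. Tnfrsf9 ran against the CD3 genes, with r = -0.73 and rho = -0.76 (adjusted permutation p = 0.0034 and 0.0040), and 1.06% of all genes had an r as low. Ikzf2 did not pass, with r = 0.51 and rho = 0.43 (adjusted permutation p = 0.060 and 0.14). Without the 2 tumors farthest from the median CD3 level, r was 0.62 to 0.87 in the 7 genes, 0.61 in Ikzf2 and -0.62 in Tnfrsf9.

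In 66cl4 tumors (n = 20) the relation was seen for Cd28 (r = 0.76, rho = 0.77, adjusted permutation p = 0.0034 and 0.0040, and r = 0.65 without the 2 farthest tumors). Tnfrsf4 passed by r but not by rho (0.51 and 0.49, adjusted permutation p = 0.042 and 0.053, and r = 0.38 without the 2 farthest tumors). The other 7 genes ranged in r from -0.37 for Foxp3 to 0.41 for Ikzf2, with adjusted permutation p of 0.078 or more. The range of the CD3 genes was also narrower there, at 18.5 to 113 summed normalized counts against 72.1 to 745 in 4T1 tumors. Whether r differs between the models was not tested.

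**Figure D4:**
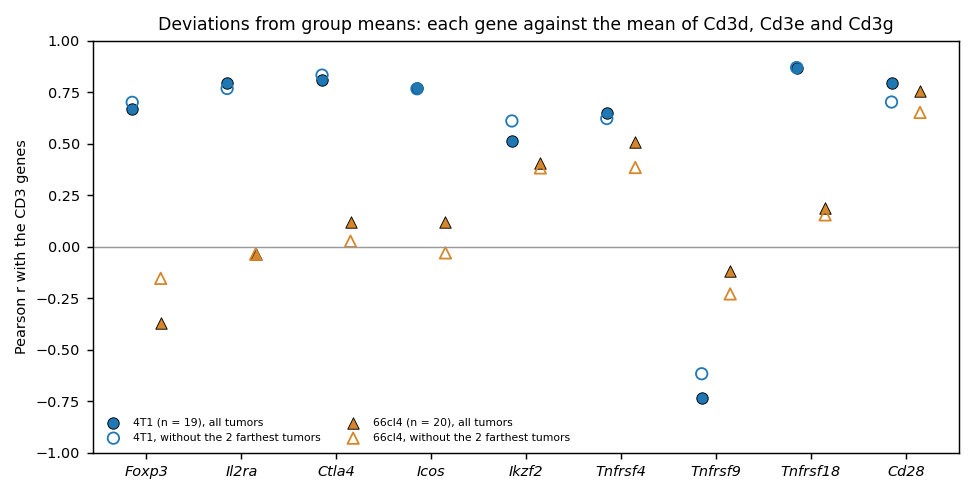
Pearson r (y axis) between deviations from group means of each gene and of the mean of Cd3d, Cd3e and Cd3g; circles are 19 4T1 tumors, triangles 20 66cl4 tumors, and open symbols leave out the 2 tumors farthest from the median CD3 level. In 4T1 tumors 8 genes lie between 0.51 and 0.87 and Tnfrsf9 lies at -0.73, and in 66cl4 tumors Cd28 is highest at 0.76.

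The ligands of these receptors were partly measured: Cd80, Cd86, Icosl, Tnfsf9 and Tnfsf18 were in the table, and Tnfsf4 and Il2 were not analysed here. None of the 5 passed the adjusted threshold in a treatment comparison within a model. Icosl, the ligand of ICOS, had a mean of 109 ± 37.2 normalized counts in the untreated (SD, n = 4), 154 ± 35.5 in anti-PD-1-treated and 84.5 ± 27.2 in combination-treated 4T1 tumors (SD, n = 5 each). It was at 50.6 ± 15.6 in untreated, 76.4 ± 7.01 in anti-PD-1-treated, 89.1 ± 21.5 in chitin-treated and 79.9 ± 14.2 in combination-treated 66cl4 tumors (SD, n = 5 each). Its difference was -0.48 for the combination against anti-PD-1 in 4T1 tumors, and 0.27, 0.37 and 0.30 for anti-PD-1, chitin and the combination against no treatment in 66cl4 tumors, each at an unadjusted p under 0.05. Of all genes, 9.13%, 5.36%, 11.4% and 10.6% reached that level in these comparisons, in the same order. In combination-treated against untreated 66cl4 tumors Tnfsf9, the ligand of 4-1BB, was at 85.3 ± 11.5 against 111 ± 11.4 normalized counts (SD, n = 5 each), a difference of -0.20 (adjusted p = 0.37 in limma). Tnfsf18, the ligand of GITR, was at 13.7 ± 3.74 against 8.07 ± 3.44 (SD, n = 5 each), a difference of 0.15 (adjusted p = 0.45 in limma). Cd86, a shared ligand of CD28 and CTLA-4, differed by -0.57 for the combination against anti-PD-1 in 4T1 tumors (adjusted p = 0.26 in limma). Between untreated models, Icosl was higher in 4T1 by 0.50 (adjusted p = 0.0016 in limma) and Cd80 was lower, with a difference of -0.29 (adjusted p = 0.016 in limma). These 2 of 5 ligands compare with 55.8% of all genes called there.

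Signalling genes below the receptors, 21 of 21 measured, gave 0 past the adjusted threshold in anti-PD-1-treated against untreated 4T1 tumors, with 17 higher and a median difference of 0.18. The highest were Lck at 0.81 and Il2rb, a chain of the interleukin-2 receptor, at 0.69, and the lowest were Traf1 at -0.17 and Jak3 at -0.12. In the combination against anti-PD-1, 11 of the 21 were lower at an unadjusted p under 0.05 and 0 were higher. Of all genes, 9.13% reached that level in either direction. The lowest were Lck at -1.08 and Il2rb at -0.85, and the highest were Jak3 at 0.08 and Traf3 at 0.03. Between untreated models 13 of 21 passed the adjusted threshold, near the 55.8% of all genes, with 9 higher in 4T1, led by Jak3 at 1.47 and Traf1 at 0.77, and 4 lower, led by Nfkb2 at -1.01 and Pik3r1 at -0.70.

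Of 23 other genes known from regulatory T-cells, 21 were measured. In anti-PD-1-treated against untreated 4T1 tumors 0 passed the adjusted threshold, and 4 were higher at the unadjusted level, against 8.89% of all genes. The median difference was 0.09, with Itgae (0.82) and Tigit (0.68) highest and Nt5e (-0.71) and Runx1 (-0.30) lowest. In combination-treated against untreated 66cl4 tumors 0 passed, and 3 were higher and 3 lower at the unadjusted level, against 10.6% of all genes. Irf4 (0.29) and Entpd1 (0.29) were highest and Tigit (-0.40) and Nt5e (-0.36) lowest. Between untreated models 10 of 21 passed, near the 55.8% of all genes, with 7 higher in 4T1, led by Nt5e at 3.96 and Prdm1 at 1.01, and 3 lower, led by Il1rl1 at -4.20 and Tigit at -0.93. NT5E (CD73) makes adenosine and is also found on epithelial and stromal cells, and IL1RL1 is the receptor of interleukin-33, so that these genes are not confined to T-cells.

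Of 10 other costimulatory receptors, 8 were measured. In anti-PD-1-treated against untreated 4T1 tumors 8 of 8 were higher, 5 of them at the unadjusted level, against 8.89% of all genes. None passed the adjusted threshold, the median was 0.34, and Cd2 (0.87) and Btla (0.67) were highest. In the combination against anti-PD-1 8 of 8 were lower, 7 of them at the unadjusted level, against 9.13% of all genes. The median was -0.46, with Cd2 (-0.91) and Btla (-0.69) the lowest. In combination-treated against untreated 66cl4 tumors 8 of 8 were higher, 5 of them at the unadjusted level, against 10.6% of all genes. None passed the adjusted threshold, and Btla (0.31) and Cd226 (0.29) were highest.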

How the data were processed

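RNA from 39 primary tumors was measured by bulk RNA-sequencing. The authors aligned reads to mm10 with HISAT2, counted them per gene with summarizeOverlaps, dropped genes unless over 10 reads were found in 10% of cases or more, and deposited log2-like values after the variance-stabilizing transformation of DESeq2 for 14318 genes. Untreated 4T1 tumor 3 was not analysed here. Inverting the transformation gave normalized counts and whole reads.

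The values were compared with limma 3.58.1 (R 4.3.3, mean-variance trend), with 1 fit per model and a fit of both models for comparisons between them. Benjamini-Hochberg adjustment ran over all genes at a threshold of 0.05. Standard errors are those of limma, and differences are in the log2-like units, which understate changes of genes with few reads. Reads on the listed genes were 5105898 to 14800352 per tumor. Limma-voom, equal depth, other scalings, filters, weights and leaving out each tumor were alternatives. Exon lengths came from GENCODE, and promoters from RefSeq (GRCm38.p6). Correlations and figures used Python 3.11.15.

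The 9 genes and the gene lists were chosen with earlier results of these data known. A difference with its error is given for each of the 9 genes with an unadjusted p under 0.05 and otherwise where it completes a comparison; of the lists, the highest and lowest genes are named.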

Additional observations from a re-analysis of the deposited data

Results flagged for a closer look

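Of 72 sets of tumors (9 genes in 8 groups), 2 held a tumor far from the others by Dixon's criterion; chance gives about 1 in 20. Tnfrsf18 in anti-PD-1-treated 4T1 tumor 2 had the lowest variance-stabilized value of its group, 6.75, or 16.1 normalized counts against 62.3 to 90.9 in the other 4 tumors. Cd28 in untreated 4T1 tumor 5 had the highest value of its group, 7.065, or 34.1 normalized counts against 8.20 to 9.46 in the other 3 tumors.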

How the results depend on the processing

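The number of the 9 genes past the adjusted threshold was 0 in every treatment comparison and 2 between untreated models. With tumor weights it was 6 for anti-PD-1 and 7 for the combination against anti-PD-1 in 4T1, 3 for the chitin-containing 4T1 groups and 4 for the difference in anti-PD-1 response, where 960, 2127, 297 and 331 of all 14318 genes passed. With both models in 1 fit it was 4 for the combination against anti-PD-1 in 4T1, beside 294 of all genes. Between untreated models it was 1 without the lowest 25% of genes, 1 after quantile normalization, 1 by limma-voom, 1 at equal read depth and 0 with only the compared groups. Leaving out 1 tumor at a time gave 0 to 1 for anti-PD-1 in 4T1, 0 to 3 for the combination against anti-PD-1 and 0 to 2 between untreated models; the highest of the first 2 ranges came without anti-PD-1-treated 4T1 tumor 2. The filter on the lowest 25% removed 6 of the 9 genes (Il2ra, Ctla4, Icos, Tnfrsf4, Tnfrsf18 and Cd28), and the median of those remaining was -0.19 for the combination against anti-PD-1 and -0.018 for the chitin-containing groups in 4T1, and 0.033 for the 66cl4 interaction. The log2 scale of limma-voom compresses low counts less than the variance-stabilized scale does. In 4T1 limma-voom gave medians of 1.33 for anti-PD-1, -1.426 for the combination against anti-PD-1, -1.338 for the interaction and -0.75 for the chitin-containing groups. In 66cl4 it gave 0.16 for chitin, 0.26 for the combination, 0.13 for the combination against anti-PD-1, 0.093 against chitin and 0.13 for the chitin-containing groups, and it gave 0.87 for the difference in response. Foxp3 relative to CD3 in chitin-treated against untreated 4T1 tumors ranged from -0.01 to 0.18 without 1 tumor, and was negative without untreated tumor 1 (-0.011) or 5 (-0.0034). Same-numbered tumors deviated together with r from -0.39 to 0.45 in 4T1 and -0.30 to 0.54 in 66cl4. These values were not set against differently numbered tumors, so they cannot tell whether the numbers pair tumors. With a replicate block the counts were still 0 and 2, and the median for anti-PD-1 in 4T1 was 0.41. Apart from Tnfrsf9, Foxp3 and Ikzf2, the genes had 1 to 114 reads per tumor, which limits their precision. The causes of these shifts were not tested.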

Other observations

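The genes most like Foxp3 within each model were looked up after the values had been seen, and carry no test. Over the 19 4T1 tumors they were Icos (Pearson r = 0.89), Carmil2 (0.89) and Ltb (0.86). Over the 20 66cl4 tumors they were Npnt (0.82), Pagr1a (0.80) and Zfp706 (0.80).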
